A study of Homo sapiens with 71 samples.

Results

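Human HepG2 hepatoma cells kept in medium made up with water from the site coded VROH were compared with cells kept in medium made up with purified water. The comparison used 3 VROH libraries (numbers 1, 3 and 4) and 8 control libraries, 11 of the 71 libraries of the series, and all features with enough counts. The remaining VROH library, number 2, held 8840 counts in all and was left out, since it had failed. The labels decode none of the site codes, so no place or water type is read from them here.

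In the study, medium concentrate was diluted with field water that had passed a 0.7 µm filter, or with ultrapure water, so that the diluent formed 75% of what the cells received. Exposure lasted 48 hours after 72 hours of preculture. There were 16 sites, 4 dishes each by the design, and all groups carried the same supplements, serum and antibiotics. Each group is 1 cell line and 1 water sample, and all dishes were seeded from 1 pool of cells, so the errors and p values given here describe the spread between dishes and not between waters taken on other days. The labels call the dishes biological replicates. Because RNA was read from whole dishes, fewer cells with a transcript and less transcript per cell cannot be told apart. RNA was assayed by TempO-Seq, in which 2 probes that anneal side by side to a transcript are joined and counted by sequencing. Levels are given as CPM, counts scaled to a common library total, after adjustment of the totals by TMM, a method that sets aside the most extreme features.

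Liver cells take up, transform and secrete a wide range of substances, and several of their genes serve as gauges of what they meet. Metallothioneins, small proteins rich in cysteine, hold zinc, copper or cadmium, and their genes are switched on by the metal-sensing factor MTF1. The P450 gene CYP1A1 answers to ligands of the aryl hydrocarbon receptor, and HMOX1 to oxidative and haem stress. HAMP encodes hepcidin, the hormone that limits iron release into the blood, and is driven by BMP and SMAD signals and by inflammation. ANKRD1 and CCN2 are targets of YAP and its TEAD partners, which the Hippo pathway holds back.

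The 3 VROH libraries held 4.68 to 9.89 M (mega) counts and the 8 control libraries 8.18 to 14.5 M (median 9.11). Of the 6916 features tested, between 6873 and 6900 had counts in each VROH library. The SD of log2 differences between a library and the rest of its group was 0.357 to 0.386 for VROH and 0.178 to 0.388 for the controls, over features of at least 10 CPM. The listed hepatocyte markers (ALB, AFP, the apolipoproteins, fibrinogens and others, 15 in all) summed to 172127 to 214733 CPM in the VROH libraries and 176963 to 209893 in the controls, and 1 of them, F2, had no counts. Of 16 immune cell markers MS4A1 and PTPRC were at 0 in these 11 libraries, and LYZ made up 88.4% of the summed level. The immune sum was 2056 to 3133 CPM at VROH and 1644 to 2320 in the controls, so the groups overlapped.

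Few genes differed between VROH water and purified water at the threshold used, an adjusted p under 0.05 from edgeR's quasi-likelihood test. Genes for lipid phosphate breakdown (ETNPPL), mitochondrial translation (MRPS6), cell contact signalling (PTPRK) and fetal drug metabolism (CYP3A7) rose, and genes for cell death initiation (CASP8), tRNA modification (ALKBH8), signalling scaffolds (AKAP12), a peptidase-like protein (PREPL) and FAM229B fell. In all 4 features were called higher and 5 lower, 0.130% of the 6916 tested. The changes ran from 0.48 to 1.30 on the log2 scale among the higher and from -1.28 to -0.60 among the lower. The median over all features was -0.01.

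ETNPPL (chromosome 4, 108742040 to 108763054, minus strand) encodes the lyase that breaks down phosphoethanolamine, a building block of membrane lipids. It stood at 3.33, 3.42 and 5.14 CPM in the VROH libraries, against 1.13 to 2.07 (median 1.58) in the controls. Every VROH library lay above every control, and the log2 difference was 1.30 ± 0.29 (SE, adjusted p = 0.0384). MRPS6 (chromosome 21, 34073224 to 34143034, plus strand), a protein of the small mitochondrial ribosomal subunit, stood at 454, 479 and 471 CPM, against 231 to 379.8 (median 309.8). The VROH values lay close together and above all 8 controls, with a log2 difference of 0.59 ± 0.12 (adjusted p = 0.0327). In the annotation the gene for the myo-inositol transporter SLC5A3 lies inside MRPS6 on the same strand, so a probe at this locus may read either transcript, and the sources used here do not give the probe positions.

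PTPRK (chromosome 6, 127968779 to 128520674, minus strand), a receptor tyrosine phosphatase at cell contacts, had 411, 380.3 and 445 CPM at VROH and 265 to 352 (median 293) in the controls. The groups did not overlap, and the log2 difference was 0.48 ± 0.11 (adjusted p = 0.0422). CYP3A7 (chromosome 7, 99684957 to 99735196, minus strand), the main CYP3A enzyme of fetal liver, had 24.8, 29.5 and 30.2 CPM against 14.6 to 20.7 (median 17.9), again without overlap (0.63 ± 0.15, adjusted p = 0.0494). Its sequence is close to that of other CYP3A genes, so its counts are uncertain to that extent.

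CASP8 (chromosome 2, 201233443 to 201287711, plus strand), the caspase that starts death receptor apoptosis, had the smallest p value of the comparison. It stood at 36.5, 37.6 and 30.0 CPM in the VROH libraries, below the 41.0 to 68.7 (median 60.7) CPM of the controls. The means were 34.7 ± 4.14 CPM (SD, n = 3) and 59.0 ± 8.86 (n = 8), a log2 difference of -0.76 ± 0.14 (adjusted p = 0.0122). ALKBH8 (chromosome 11, 107502726 to 107565746, minus strand), a methyltransferase for wobble uridines of tRNA, had 9.69, 9.54 and 6.42 CPM against 12.1 to 17.1 (median 15.9) (-0.84 ± 0.18, adjusted p = 0.0327). All 3 VROH values were below all controls, with library 4 the lowest.

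AKAP12 (chromosome 6, 151239999 to 151358557, plus strand), a scaffold that tethers protein kinase A, had 50.1, 53.7 and 38.8 CPM against 60.6 to 97.9 (median 71) (-0.61 ± 0.13, adjusted p = 0.0327). PREPL (chromosome 2, 44316281 to 44361862, minus strand), related to prolyl oligopeptidases, had 41.2, 45.6 and 31.0 CPM against 51.2 to 67.9 (median 60.5) (-0.60 ± 0.13, adjusted p = 0.0327). Library 4 was again the lowest of the 3 in both genes. FAM229B (chromosome 6, 112087599 to 112102790, plus strand) had 1.08, 1.26 and 1.28 CPM, with little spread, against 2.37 to 3.18 (median 2.94) (-1.28 ± 0.29, adjusted p = 0.0422).

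**Figure D1:**
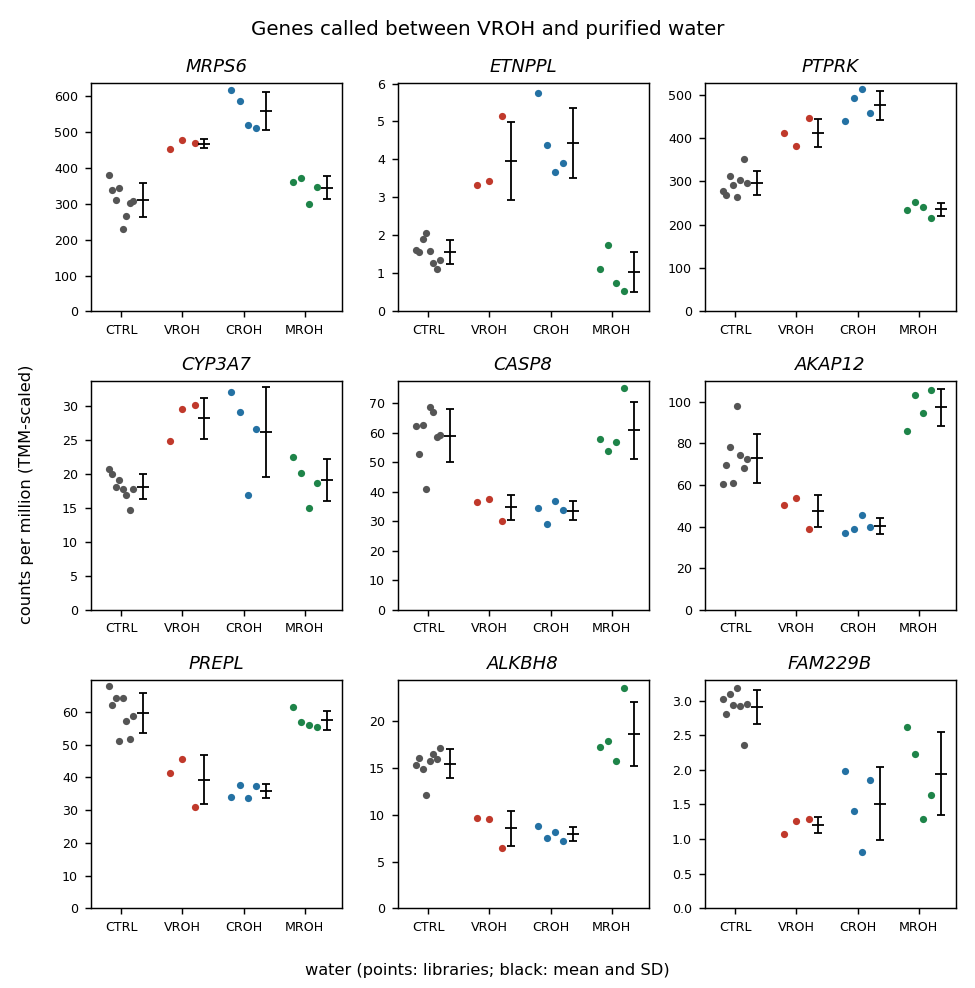
TMM-scaled CPM (y axis, linear, from 0) of the 9 genes called between VROH and purified water, by library (points) in the controls, VROH, CROH and MROH, with the mean and SD in black. In each panel the 3 VROH points lie entirely above or entirely below the 8 control points.

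All 9 called genes had 3 VROH libraries outside the range of the 8 controls. They were called for their distance from the controls, so this is a description. Uncalled genes such as GPD1 and MKI67 also lay outside that range, and the share over all tested features was not counted. The calls depended on single libraries: 0 features were called without VROH 1 or without VROH 4, and 5 without VROH 3. Without CTRL 1 to CTRL 8 in turn 8, 2, 2, 6, 1, 2, 6 and 2 features were called. Of the 11 libraries, leaving out VROH 1 or VROH 4 ended the call of CASP8 (adjusted p up to 0.334, log2 difference then -0.67), while MRPS6 lost its call without CTRL 5, VROH 1, VROH 3 or VROH 4 and the other 7 genes without 7 to 10 of the 11. The log2 values kept their direction throughout. The number called was 0 in a fit with only these 2 groups. It was also 0 with CRMI 1 and SRMI 3, 2 libraries of other sites left out of the main fit, put back. DESeq2 called 25, 9 higher and 16 lower, 8 of the 9 among them. At an unadjusted p under 0.05 there were 300 features higher and 448 lower, where 346 in all would be expected by chance if no feature differed.

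The gene lists held few called members. Of 43 genes of DNA replication and S phase 39 were tested against the controls, and 30 were below 0 with a median log2 difference of -0.29, beside -0.01 over all features. None passed the test by edgeR, and 6 were lower at an unadjusted p under 0.05. Of 24 tested immediate early genes, which growth signals switch on within minutes, 19 were above 0 with a median of 0.29, 4 of them at an unadjusted p under 0.05 and 0 called. WNT and beta-catenin targets had a median of 0.39 over 13 members, 10 of them above 0, 4 higher at an unadjusted p under 0.05 and 0 called. For proteasome subunits 26 of 35 were below 0 (median -0.14, 0 called), and for urea cycle and proline synthesis 11 of 14 were above 0 (median 0.25, 0 called).

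Hepatocyte transcription factors had 15 of 19 members above 0 (median 0.13), 6 of them higher at an unadjusted p under 0.05, and YAP targets 13 of 17 (median 0.15), 3 of them higher at that p, each with 0 called. All 4 tested AHR targets were above 0 (median 0.18, 0 called). Oxidative phosphorylation subunits had a median of 0.04 over 60 members with 37 above 0, and mitochondrial ribosomal proteins one of -0.06 over 70 members, where MRPS6 was the 1 called. Mitosis genes had a median of 0.01 over 43 members. Among 20 cytochrome P450 genes 6 were above 0 and CYP3A7 was the 1 called (median -0.06), and among 21 caspases and death receptor genes 15 were below 0 and CASP8 was the 1 called (median -0.10). Of 22 enzymes of glycerol phosphate and ethanolamine lipids 15 were above 0 (median 0.04), with ETNPPL the 1 called. The stress lists for NRF2 targets (14 of 18 above 0, median 0.14), ATF4 targets (18, 0.02), ER chaperones (17, 0.07), heat shock chaperones (17, 0.00) and p53 targets (20, -0.09) held 0 called members. With the edgeR test 4 NRF2 targets were higher at an unadjusted p under 0.05, 2 ATF4 targets were lower, 1 heat shock gene was higher and 1 p53 target was lower. Over all 6916 tested features 300 were higher and 448 lower at that p, the background for the list counts in this and the preceding paragraph.

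The sentinel genes did not pass the test against purified water, and their values follow. CYP1A1 had 164, 79.4 and 116 CPM in the VROH libraries and 57.3 to 97.1 (median 77.0) in the controls, a log2 difference of 0.66 ± 0.41 (adjusted p = 0.588). Library 1 lay above all controls and library 3 inside their range, so the spread among VROH dishes was as large as the difference. HMOX1 was at 27.1, 17.6 and 24.4 CPM against 22.2 to 30.7 (median 26.0) (-0.20 ± 0.13, adjusted p = 0.589), and the stress factor DDIT3 at 95.9, 88.2 and 90.1 against 95.6 to 126 (median 107) (-0.24 ± 0.12, adjusted p = 0.441). The cell cycle inhibitor CDKN1A was low in both groups, at 1.13 and 1.43 CPM on average.

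MKI67, a marker of dividing cells, had 78.9, 82.5 and 68.1 CPM at VROH, above the 46.8 to 65.6 (median 63.1) CPM of all 8 controls, and did not pass (0.35 ± 0.15, adjusted p = 0.403). NRN1, which encodes neuritin, had 8.81, 8.10 and 8.14 CPM against 4.36 to 8.28 (median 5.46) (0.58 ± 0.18, adjusted p = 0.156), so that 2 VROH libraries lay inside the control range. GPD1, the cytosolic glycerol-3-phosphate dehydrogenase, had 8.22, 6.66 and 6.21 CPM, all below the controls at 10.0 to 14.1 (median 11.5) (-0.71 ± 0.21, adjusted p = 0.144). The fatty acid importer CPT1A (0.08 ± 0.22), the lipid droplet protein PLIN2 (0.14 ± 0.10), albumin (0.13 ± 0.19 for ALB) and the membrane protein PLPPR1 (0.15 ± 0.12) had log2 differences of the size of their standard errors or little above.

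The aldose reductase AKR1B1, an osmotically regulated enzyme chosen after its values were seen, had 3.23, 4.5 and 1.71 CPM against 1.24 to 2.45 (median 1.85) (0.81 ± 0.33, adjusted p = 0.354). Libraries 1 and 3 lay above the controls and library 4 inside their range. Of 5 tested genes on the osmotic stress list 4 were above 0 (median 0.29), and MRPS6, listed for its locus, was the 1 called.

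VROH was next set against the unweighted mean of the other 15 sites, a contrast that uses no control library and asks where this water differs from the other field waters. Metallothionein genes and 20 other features were lower and HAMP, the YAP targets ANKRD1 and CCN2 and 7 other features were higher. The edgeR test called 32 features, 10 higher and 22 lower, 0.463% of the 6916 tested. For 13 of the 32 the VROH mean lay outside the range of the 15 other site means. The 32 were called for their distance from the other sites, and that share over all tested features was not counted, so this is a description.

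The metallothionein genes sit in a cluster on chromosome 16, and their promoters carry copies of the metal response element that MTF1 binds. The promoter of MT2A (RefSeq, GRCh38.p14, chr16:56608334-56608633, plus strand, 250 bases before to 50 after the start) is shown as an example of the element, although MT2A itself was not called; capitals mark TGCGCNC or TGCACNC on either strand. It held 8 non-overlapping matches and the MT1X promoter 4, where 29.6% of 35116 promoters of that length held at least 1 and 2.3% held 3 or more. The gene was picked with its matches in view, so nothing is read from that difference, and the promoters of the called MT1M and MT1G were not analysed here.
MT2A: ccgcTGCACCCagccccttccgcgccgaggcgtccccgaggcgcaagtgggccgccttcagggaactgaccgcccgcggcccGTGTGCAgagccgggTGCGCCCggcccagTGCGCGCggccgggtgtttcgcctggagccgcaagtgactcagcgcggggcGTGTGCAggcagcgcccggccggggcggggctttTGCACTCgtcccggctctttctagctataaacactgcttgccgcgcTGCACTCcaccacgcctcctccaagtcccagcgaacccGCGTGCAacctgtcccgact

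MT1M (chromosome 16, 56632233 to 56633986, plus strand) had 20.8, 20.2 and 14.6 CPM at VROH, the lowest mean of the 16 sites. The other site means ran from 20.9 at MIWI to 72.9 at BRWI, with a median of 28.8. The log2 difference from the mean of the other sites was -0.84 ± 0.16 (adjusted p = 0.00222). Against purified water it was 0.22 ± 0.17 (adjusted p = 0.652), with the controls at 10.3 to 22.1 (median 15.2) CPM and all 3 VROH values inside their range. MT1G (chromosome 16, 56666731 to 56668065, minus strand) had 232, 271 and 246 CPM, second lowest of the 16 site means, which ran from 243 at MIWI to 833 at BRWI elsewhere (-0.70 ± 0.13, adjusted p = 0.00170). Its controls lay at 184 to 293 (median 221) CPM and again enclosed all VROH values (0.15 ± 0.13).

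MT2A (chromosome 16, 56608199 to 56609497, plus strand) had 5.87, 13 and 13.1 CPM, also second lowest among the sites, with a wide spread, and did not pass (-0.55 ± 0.25 against the other sites, adjusted p = 0.283; 0.26 ± 0.28 against the controls). MT1X (chromosome 16, 56682424 to 56684196, plus strand) had 0.294, 0.180 and 0 CPM, the lowest site mean, against 0.531 at RRMI to 1.41 at CRMI elsewhere and 0.119 to 0.674 (median 0.345) in the controls. The log2 difference from the other sites was -2.14 ± 0.61 and did not pass (adjusted p = 0.0813). MT1F had 0.587, 0.900 and 0.856 CPM and lay 11th of 16 (-0.33 ± 0.40). Of the 7 metallothioneins tested 5 were below the mean of the other sites (median -0.55) and 2 were called, while 5 were above the controls (median 0.21) and 0 were called. Metallothioneins resemble each other closely, and counts may be shared between them.

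HAMP (chromosome 19, 35280716 to 35285143, plus strand) had 22.8, 27.9 and 28.9 CPM at VROH, the highest site mean. The other sites ran from 1.28 at LRMN to 26.3 at ORNY with a median of 18.9, and the distance to ORNY was smaller than the SD of the VROH libraries (26.5 ± 3.27, n = 3). The log2 difference from the mean of the other sites was 0.83 ± 0.18 (adjusted p = 0.0203). From the controls, at 16.4 to 28.2 (median 21.2) CPM, VROH differed by 0.33 ± 0.22 (adjusted p = 0.601), with library 4 alone above all of them. The HAMP promoter (RefSeq, GRCh38.p14, chr19:35282278-35282577, plus strand) is shown with its GGCGCC, the core of a BMP response element, in capitals. That word was present in 19.2% of promoters on either strand.
HAMP: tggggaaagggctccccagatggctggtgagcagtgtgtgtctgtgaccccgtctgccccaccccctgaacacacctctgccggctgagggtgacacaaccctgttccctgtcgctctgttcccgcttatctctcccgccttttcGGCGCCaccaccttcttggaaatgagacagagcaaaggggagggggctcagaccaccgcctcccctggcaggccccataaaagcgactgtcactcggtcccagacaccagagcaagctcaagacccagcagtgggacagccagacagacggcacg

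ANKRD1 (chromosome 10, 90912096 to 90921276, minus strand), a cardiac and stress ankyrin repeat protein, had 474, 448 and 776 CPM at VROH, where library 4 stood well above the others. Site means elsewhere ran from 145 at SRMI to 729 at FRWI, and VROH was 7th of 16 from the top, and the sites fell on both sides of the controls. The log2 difference from the mean of the other sites was 0.83 ± 0.15 (adjusted p = 0.00170) and that from the controls 0.23 ± 0.18 (adjusted p = 0.673), with a control range of 369 to 683 (median 483). CCN2 (chromosome 6, 131948176 to 131951373, minus strand), a matrix-associated growth factor formerly called CTGF, had 492, 325 and 373 CPM, also 7th of 16, against 117 at CRMI to 739 at LRMN elsewhere (0.69 ± 0.17, adjusted p = 0.0308). Its controls lay at 258 to 485 (median 289.9) CPM (0.34 ± 0.20, adjusted p = 0.555), and in both genes the VROH libraries overlapped the control range.

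Their promoters are shown because these were the 2 called members of the YAP list; capitals mark GGAATG, the core word bound by TEAD factors, on either strand. ANKRD1 held 2 matches and CCN2 held 3, and of the other YAP targets searched LATS2 held 1 and IGFBP3 held 0. Over all promoters 14% held at least 1 and 0.128% held 3 or more. ANKRD1 and CCN2 were listed as targets of YAP and TEAD, so nothing is read from these counts. The windows are chr10:90921038-90921337 and chr6:131951323-131951622, both on the minus strand and both from RefSeq, GRCh38.p14.
ANKRD1: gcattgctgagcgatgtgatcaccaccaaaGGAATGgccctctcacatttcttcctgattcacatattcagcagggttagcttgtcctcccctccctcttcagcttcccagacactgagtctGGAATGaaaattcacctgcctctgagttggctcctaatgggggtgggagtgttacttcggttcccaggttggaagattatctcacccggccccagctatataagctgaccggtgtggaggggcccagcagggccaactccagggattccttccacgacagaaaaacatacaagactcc
CCN2: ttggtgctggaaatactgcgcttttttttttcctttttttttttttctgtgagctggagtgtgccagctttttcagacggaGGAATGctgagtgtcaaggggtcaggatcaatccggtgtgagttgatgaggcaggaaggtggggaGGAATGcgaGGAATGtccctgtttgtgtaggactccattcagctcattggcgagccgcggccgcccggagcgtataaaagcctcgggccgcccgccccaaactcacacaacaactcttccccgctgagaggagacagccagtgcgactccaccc

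Other called features had varied known roles. EFNA3 (chromosome 1, 155078872 to 155087538, plus strand), an ephrin ligand of the cell surface, had 4.21, 5.58 and 4.92 CPM and the highest mean of the 16 sites, which ran from 1.62 at MAWI to 3.95 at GRNY (0.94 ± 0.22, adjusted p = 0.0302). MAP1B (chromosome 5, 72107234 to 72209570, plus strand), a microtubule-associated protein, was also highest at VROH, with 15.7, 21.4 and 21.0 CPM against 11 at GRNY to 16.1 at CROH (0.55 ± 0.14, adjusted p = 0.0449). Among genes chosen after their values were seen, the lipocalin LCN15 was higher by 0.75 ± 0.14, lysozyme (LYZ, also on the immune list) by 0.61 ± 0.14, the desmosome protein desmoplakin (DSP) by 0.54 ± 0.13 and glutamine synthetase (GLUL) by 0.43 ± 0.11. PTPRK, called against the controls too, was higher by 0.43 ± 0.09.

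Among the lower features, IFT88 (chromosome 13, 20567069 to 20691437, plus strand), which carries cargo along cilia, had 1.27, 1.44 and 0.642 CPM, the lowest of the 16 means, against 1.75 at LRMN to 3.86 at ORNY (-1.25 ± 0.31, adjusted p = 0.0441). DFFB (chromosome 1, 3857267 to 3885429, plus strand), the nuclease that cuts DNA in apoptosis, had 12.3, 12.6 and 8.56 CPM against 13.1 at CROH to 24.8 at CRMI (-0.64 ± 0.15, adjusted p = 0.0302). The complex I assembly factor NDUFAF8 (-0.56 ± 0.14), the phosphatase DUSP12 (-0.51 ± 0.12) and C1orf131 (-0.50 ± 0.11) likewise had their lowest site mean at VROH. CASP8 (-0.67 ± 0.13), ALKBH8 (-0.73 ± 0.16) and AKAP12 (-0.57 ± 0.12) were lower than at the other sites as well as lower than in the controls, but VROH was 15th, 15th and 14th of 16 in the order of their means.

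**Figure D2:**
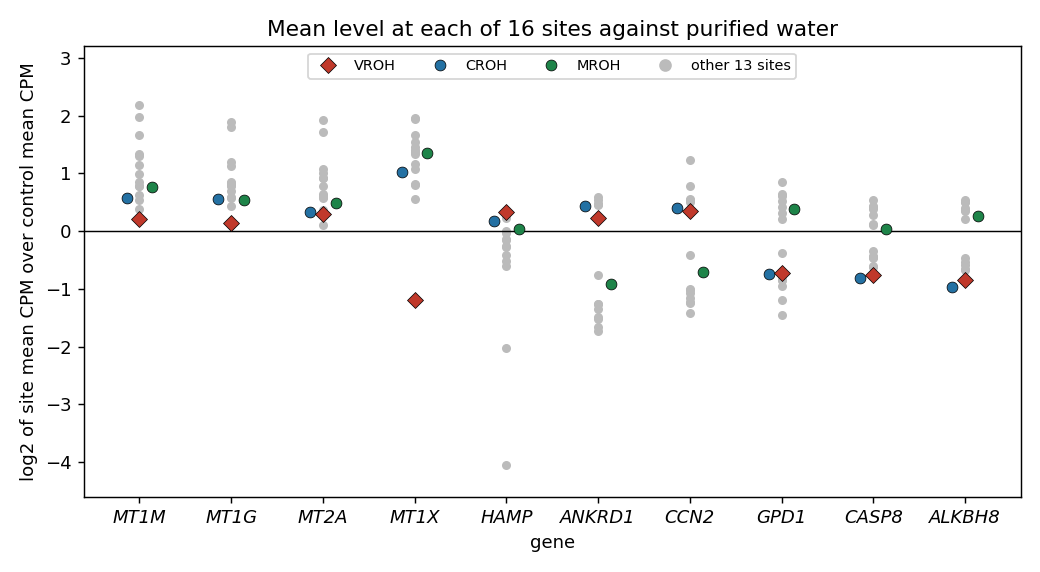
Log2 ratio of each site's mean CPM to the control mean (y axis) for 10 genes (x axis), with VROH as a red diamond, CROH blue, MROH green and the other 13 sites grey. VROH has the lowest metallothionein mean for MT1M and MT1X and the highest HAMP mean, and lies beside CROH for ANKRD1, CCN2, GPD1, CASP8 and ALKBH8.

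These calls also depended on single VROH libraries. Without VROH 4 the number was 0, without VROH 1 it was 6 and without VROH 3 it was 41. MT1M, ANKRD1 and LCN15 were called without VROH 1 and without VROH 3, and without VROH 4 their log2 values were -0.70, 0.53 and 0.64. HAMP was lost without any 1 of the 3 libraries, at 0.77 to 0.95 with an adjusted p up to 0.387. EFNA3, MAP1B, IFT88 and NDUFAF8 were lost in the same way. MT1G (adjusted p up to 0.129), CCN2, CASP8, ALKBH8, AKAP12 and PTPRK kept their calls in only 1 of the 3 fits. So did LYZ, GLUL, DSP, DFFB, DUSP12 and C1orf131.

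CROH and MROH, whose codes end in the same 2 letters as VROH, were compared with it directly, 4 libraries each. Between VROH and CROH no gene passed the test: edgeR called 0 features, 0% of the 6916 tested, with a smallest adjusted p of 0.795. There were 153 features at an unadjusted p under 0.05, 89 higher and 64 lower, where 346 would be expected by chance if no feature differed. DESeq2 called 0. The intervals bound the difference: for 78.4% of features the 95% interval of the difference lay within a 2-fold change either way, and for 47.6% within 1.5-fold. The median interval extended 0.46 on the log2 scale to either side.

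The 9 genes called against purified water had these values. CASP8 had 34.4, 29.1, 36.9 and 33.8 CPM in the CROH libraries and 36.5, 37.6 and 30.0 at VROH, a log2 difference of 0.05 ± 0.16 with a 95% interval of -0.26 to 0.37. ALKBH8 had 8.81, 7.54, 8.16 and 7.21 CPM at CROH (0.12 ± 0.21, interval -0.29 to 0.54), and ETNPPL had 5.76, 4.38, 3.67 and 3.92 (-0.18 ± 0.32, interval -0.82 to 0.46). AKAP12 differed by 0.24 ± 0.14 (interval -0.05 to 0.53), PREPL by 0.14 ± 0.14 (-0.15 to 0.43) and FAM229B by -0.31 ± 0.35 (-1.01 to 0.40). PTPRK differed by -0.21 ± 0.13 (-0.46 to 0.05) and CYP3A7 by 0.11 ± 0.17 (-0.23 to 0.45). In these 8 genes the CROH values overlapped those of VROH. MRPS6 at CROH reached 618, 588, 519.8 and 512 CPM, all above the VROH values (-0.26 ± 0.14, interval -0.55 to 0.03, adjusted p = 1.00), and did not pass.

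No list had a called member between VROH and CROH, since no feature was called. The median over all features was -0.0025. Immediate early genes had 21 of 24 members below 0 with a median of -0.19 and mitosis genes 37 of 43 above 0 with a median of 0.14. WNT and beta-catenin targets had 12 of 13 below 0 (median -0.15). Of 11 listed endothelial markers 4 were tested, and 3 of these were above 0 (median 0.51), 2 of them at an unadjusted p under 0.05. The 11 summed, without TMM, to only 18.5 to 22.6 CPM in the VROH libraries, beside 16.5 to 22.4 in the controls. DNA replication genes had a median of 0.03 and YAP targets one of -0.13.

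Between VROH and MROH more genes passed the test. In VROH water some YAP targets, hepatocyte transcription factors, nitrogen-handling enzymes, mitotic genes and matrix genes were higher, and genes of DNA polymerases, caspases, GPD1, AKAP12 and ALKBH8 were lower. Of the 6916 features 315 were called, 4.55%, with 165 higher at VROH (2.39%) and 150 lower (2.17%). The called higher features had a median level of 68.4 CPM, the called lower ones 32.6 CPM and all tested features 17.9 CPM. For 308 of the 315 the control mean lay between the VROH and the MROH mean. For all 315 the CROH mean lay on the VROH side of the MROH mean, so these directions were not particular to VROH. Since the genes were chosen for the distance between VROH and MROH, both counts are descriptions.

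Of 17 tested YAP targets 6 were higher at VROH and 0 lower, with a list median of 0.58, beside -0.02 over all features. ANKRD1 had 250.1, 271, 268 and 235 CPM in the MROH libraries, all below the 474, 448 and 776 CPM of VROH (1.14 ± 0.21, adjusted p = 0.000474). CCN2 had 213, 191, 210.3 and 154 CPM at MROH, again below every VROH library (1.05 ± 0.23, adjusted p = 0.00415). The controls, at 369 to 683 (median 483) CPM for ANKRD1 and 258 to 485 (median 289.9) for CCN2, overlapped VROH and lay above MROH in every library.

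LATS2, the kinase that restrains YAP and is itself a target, had 24.8, 22.9 and 29.8 CPM at VROH and 14, 12.8, 11.8 and 11.2 at MROH (1.04 ± 0.25, adjusted p = 0.00874). The angiomotin-like AMOTL2 (0.84 ± 0.24), the LIM protein AJUBA (0.58 ± 0.13) and the growth factor binding protein IGFBP3 (0.59 ± 0.17) were the other 3 called members. No value overlapped between the sites in any of the 6. They were called for that distance, and the share without overlap over all tested features was not counted. ANKRD1, CCN2 and AJUBA were called without any 1 of the 7 libraries. LATS2 lost its call without VROH 4 (0.93, adjusted p = 0.102), IGFBP3 without MROH 3, MROH 4, VROH 1 or VROH 4 (adjusted p up to 0.252) and AMOTL2 without MROH 1, MROH 4, VROH 1, VROH 3 or VROH 4 (up to 0.141).

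Of 13 tested WNT and beta-catenin targets 3 were higher and 1 was lower, with a median of 0.20. The lower one was MYC (-0.28 ± 0.08, adjusted p = 0.0384). AXIN2, a feedback inhibitor that the pathway induces, had 76.9, 71.3 and 101 CPM at VROH and 46.1, 54.8, 56.0 and 55.3 at MROH (0.65 ± 0.14, adjusted p = 0.00312). GLUL, which marks the hepatocytes around the central vein, had 207, 171 and 217 CPM against 112, 114, 109 and 90.1 (0.89 ± 0.15, adjusted p = 0.000151). Lysozyme (LYZ) had 2280.2, 1882 and 2932 CPM against 1199.9, 1539, 1408 and 937 (0.90 ± 0.19, adjusted p = 0.00308), and it was the 1 called of the 7 tested immune markers. In AXIN2, GLUL and LYZ, called for the distance between the sites, the VROH libraries lay above the MROH libraries. Leaving out VROH 4 ended the calls of AXIN2 (0.48, adjusted p = 0.127) and LYZ (0.71, adjusted p = 0.0988).

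Of 24 tested immediate early genes 4 were higher and 1, again MYC (-0.28 ± 0.08), was lower (median 0.35). The kinase gene PIM1 had 22.5, 23.0 and 39.6 CPM against 14.6, 19, 10.9 and 11.2 (1.01 ± 0.29, adjusted p = 0.0357). IER5 (0.87 ± 0.25) and the AP-1 subunits JUNB (0.82 ± 0.23) and JUND (0.60 ± 0.17) were higher too. PIM1 lost its call without MROH 1, MROH 3, MROH 4 or VROH 4, IER5 without MROH 1, MROH 4, VROH 3 or VROH 4, JUNB without MROH 1, MROH 4, VROH 1 or VROH 4 and JUND without MROH 4 or VROH 4, with an adjusted p of up to 0.349.

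Among 19 hepatocyte transcription factors 3 were higher and 0 lower (median 0.30). The orphan receptor NR5A2, which drives bile acid and pancreatic genes, had 36.9, 32.4 and 37.5 CPM against 17.8, 23.7, 17.9 and 13.7 (0.95 ± 0.20, adjusted p = 0.00282) without overlap, and was called without any 1 library. The pioneer factor FOXA1 (0.50 ± 0.14) and ONECUT1, also called HNF6 (0.50 ± 0.15), were the others. FOXA1 was lost without MROH 4, VROH 1 or VROH 4 (adjusted p up to 0.108) and ONECUT1 without MROH 1, MROH 4, VROH 1, VROH 3 or VROH 4 (up to 0.130).

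Of 14 tested genes of the urea cycle and proline synthesis 3 were higher and 1 was lower (median 0.37): GLUL (above), the liver arginase ARG1 (0.48 ± 0.14), the mitochondrial arginase ARG2 (0.57 ± 0.17) and, lower, the proline reductase PYCR3 (-0.75 ± 0.20). ARG1 overlapped between the sites, with 77.4, 66.3 and 52.9 CPM at VROH and 57.1, 47.6, 36.3 and 47.4 at MROH. It lost its call without MROH 3, MROH 4, VROH 1 or VROH 3, ARG2 without MROH 3, VROH 3 or VROH 4 and PYCR3 without MROH 3, VROH 1 or VROH 4, with an adjusted p of up to 0.266.

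In lipid phosphate metabolism ETNPPL had 1.12, 1.74, 0.739 and 0.548 CPM at MROH, below every VROH library (1.84 ± 0.37, adjusted p = 0.00158). GPD1 had 8.22, 6.66 and 6.21 CPM at VROH and 16.1, 15.0, 14.8 and 14.5 at MROH, with the control range of 10.0 to 14.1 (median 11.5) in between (-1.08 ± 0.23, adjusted p = 0.00340). PLPPR1 had 42.4, 38.5 and 39.6 against 24.2, 27.0, 25.3 and 25.7 CPM (0.65 ± 0.13, adjusted p = 0.00210). These 3 of 22 tested members were called without any 1 library.

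**Figure D3:**
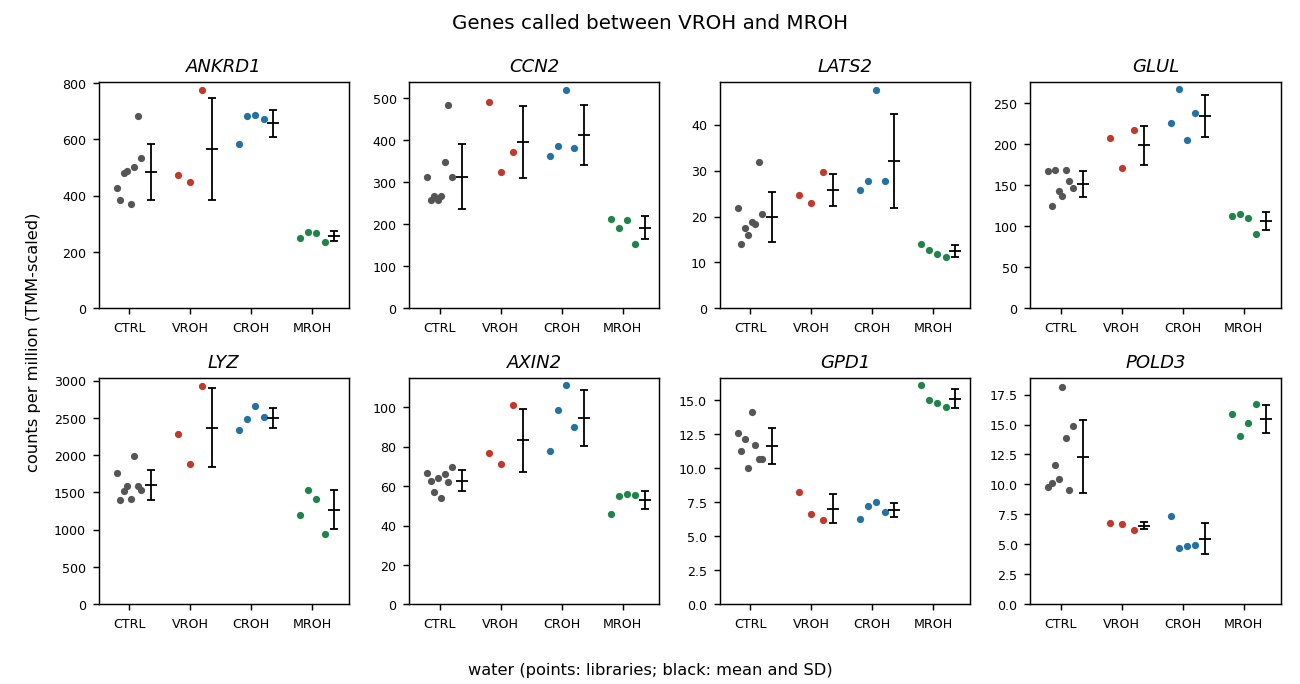
TMM-scaled CPM (y axis, linear, from 0) of 8 genes called between VROH and MROH, by library (points) in the controls, VROH, CROH and MROH, with the mean and SD in black. The VROH and MROH points do not overlap in any panel, and the control mean lies between the 2 site means.

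Cell cycle genes were called in both directions. Of 43 tested mitosis genes 4 were higher at VROH and 0 lower (median 0.13): the mitotic kinase PLK1 (1.06 ± 0.32), the spindle midzone protein PRC1 (0.69 ± 0.17), MKI67 (0.68 ± 0.18) and the kinesin KIF2C (0.41 ± 0.12). Of 39 tested DNA replication genes 3 were lower and 0 higher (median -0.38, with 31 below 0): the polymerase subunits POLD3 (-1.23 ± 0.28) and POLA2 (-1.02 ± 0.28) and the helicase factor GINS4 (-0.72 ± 0.22). PLK1 had 33.2, 30.4 and 27.2 CPM at VROH and 14.8, 11.5, 18.0 and 13.4 at MROH. POLD3 had 6.76, 6.66 and 6.21 and 15.9, 14, 15.1 and 16.7 CPM.

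None of these 7 genes overlapped between the sites. They were called for that distance, and the share without overlap over all tested features was not counted. POLD3 lost its call without VROH 4 (adjusted p = 0.0567), MKI67 without MROH 4 or VROH 1 (up to 0.0693), PRC1 without MROH 4 or VROH 4 (up to 0.0704) and KIF2C without MROH 2, MROH 4, VROH 1 or VROH 3 (up to 0.119). GINS4 did so without MROH 1, MROH 3, MROH 4, VROH 1 or VROH 4, POLA2 without MROH 1, MROH 3, MROH 4, VROH 1 or VROH 4 and PLK1 without MROH 1, MROH 2, MROH 4, VROH 1, VROH 3 or VROH 4, with an adjusted p of up to 0.182.

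Of 21 tested caspases and death receptor genes 2 were lower and 0 higher (median -0.18). CASP8 had 57.7, 53.8, 56.7 and 75.0 CPM at MROH, all above VROH (-0.80 ± 0.16, adjusted p = 0.00142), and kept its call without any 1 library. The executioner caspase CASP6 had 24.2, 26.7 and 19.5 against 38.9, 35.1, 40.9 and 45.7 CPM (-0.77 ± 0.24, adjusted p = 0.0488) and kept its call only without VROH 3. AKAP12 (-1.03 ± 0.15, adjusted p = 1.73e-05), ALKBH8 (-1.09 ± 0.20) and PTPRK (0.81 ± 0.13), called against the controls too, were called here without any 1 library.

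Of 18 tested collagens, laminins and integrins 3 were higher and 0 lower (median 0.06). The integrin ligand nephronectin (NPNT) had 23.8, 27.0 and 37.0 CPM against 14.2, 15.9, 14.2 and 15.3 (0.97 ± 0.18, adjusted p = 0.000558), the laminin chain LAMA5 differed by 1.15 ± 0.32 and the integrin chain ITGAV by 0.42 ± 0.12. LAMA5 lost its call without MROH 1, MROH 4, VROH 1 or VROH 4 and ITGAV without MROH 1, MROH 4, VROH 1 or VROH 4 (adjusted p up to 0.164). Among 20 P450 genes CYP3A7 was higher (0.56 ± 0.17) and CYP51A1, of cholesterol synthesis (-0.37 ± 0.11), and the orphan CYP20A1 (-1.24 ± 0.35) were lower (median -0.34). Those 3 lost their calls without 4 or 5 of the 7 libraries each. Of 18 tested NRF2 targets 2 were higher and 0 lower (median 0.22), FTL (0.93 ± 0.26) and the reductase AKR1B10. AKR1B10 had 29.3, 27.7 and 29.1 CPM against 17, 14, 12.9 and 10.1 (1.08 ± 0.22, adjusted p = 0.00211) and was called without any 1 library. On the ATF4 list 1 was called, higher (ATF4, 0.50 ± 0.11), and among ER chaperones 1, higher (HSPA5, 0.44 ± 0.12). Heat shock chaperones and p53 targets had 0 called.

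The largest called differences between sites that did not overlap were in sparse genes. HUNK, a kinase of the AMPK family, had 1.66, 2.16 and 1.93 CPM against 0.187, 0.620, 0.554 and 0.822 (1.78 ± 0.41, adjusted p = 0.00627) and kept its call throughout. BHLHE41, a repressor of the circadian clock, had 1.86, 0.900 and 3.21 against 0.374, 0.620, 0.462 and 0.548 CPM (1.91 ± 0.49, adjusted p = 0.0142), with a wide spread at VROH, and lost its call without VROH 4. CFAP70, a protein of ciliary axonemes, had 0.881, 1.44 and 0.428 against 4.12, 4.59, 3.23 and 4.93 CPM (-2.13 ± 0.46, adjusted p = 0.00320) and lost its call without VROH 4 (adjusted p = 0.0501). The protocadherin PCDHGC3, with 0.392, 0.180 and 0 against 2.25, 0.620, 1.48 and 0.822 CPM (-2.36 ± 0.73), and ARMH1, with 0.392, 0.360 and 0 against 1.5, 0.868, 0.923 and 1.64 (-1.94 ± 0.60), had 0 counts in VROH 4 and lost their calls without 6 of the 7 libraries. PCDHGC3 shares exons with neighbouring protocadherins, so its counts are uncertain.

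**Figure D4:**
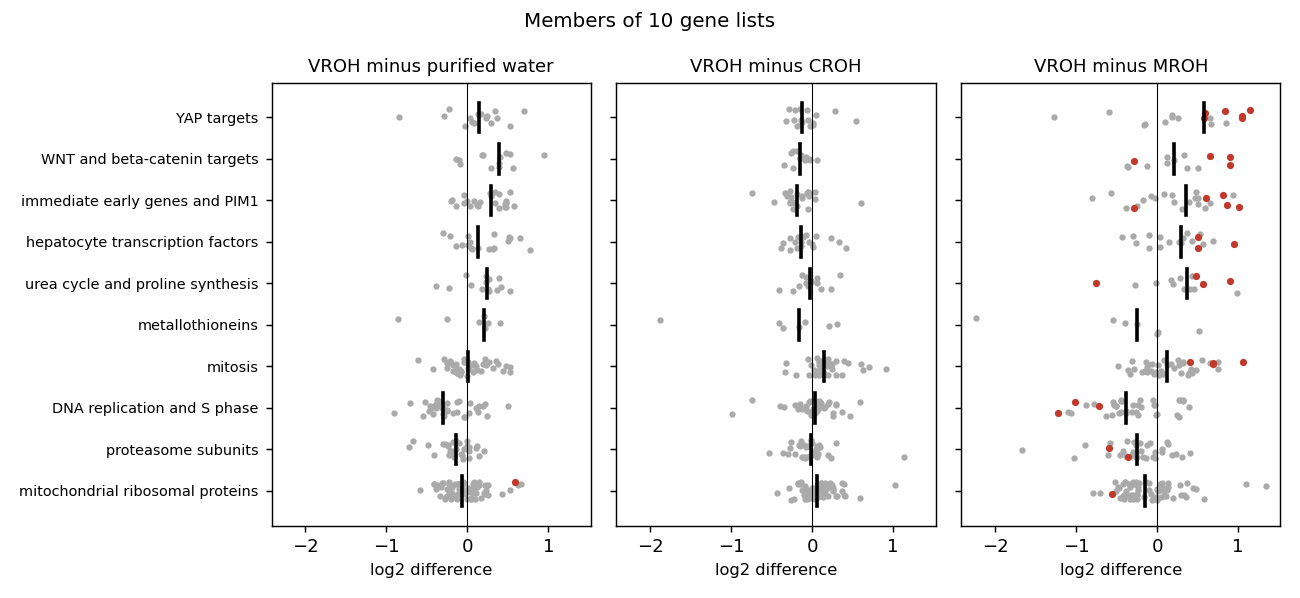
Log2 difference of each tested member (points) of 10 gene lists (y axis) for VROH minus purified water, minus CROH and minus MROH (panels, x axis in log2 units); red points passed the edgeR test at an adjusted p under 0.05 and black bars are medians. Most called members are in the MROH panel, where YAP targets have a median of 0.58 and DNA replication genes one of -0.38.

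The number called between VROH and MROH moved with the libraries kept. It was 175 without VROH 1, 403 without VROH 3 and 55 without VROH 4, and 170, 333, 297 and 123 without MROH 1 to MROH 4 in turn. It was 86 with CRMI 1 and SRMI 3 put back and 124 in a fit with these 2 sites alone. DESeq2 called 395, of which 308 were among the 315.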

How the data were processed

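The labels' protocols describe TempO-Seq on total RNA of HepG2 dishes, and the submitters' processing notes name Salmon and GRCh38; the sources used here do not give versions, probe positions or a normalization step. The authors deposited a table that they call normalized, with no step stated, and here its values were taken for expected counts per gene. In each library 1 read was worth 0.992 to 1.00, and 91.2% or more of the values below 20 were whole multiples of it to a tolerance of 0.02, so values were rounded and used as counts; any rescaling within a library would carry into counts and CPM. The table held here ends before RAI14 (31012 complete entries), so later symbols were not analysed here. For 4 columns of GRMI and MIWI the labels give the site but no matching library number.

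One edgeR 4.0.16 model (R 4.3.3, quasi-likelihood, TMM, filterByExpr with a minimum count of 10, 6916 of 12425 features with counts) held a mean for each of 17 groups over 68 libraries, 51 residual degrees of freedom being left; the common biological coefficient of variation was 0.199. VROH 2 was left out as a failed library. CRMI 1 and SRMI 3 were left out because earlier work on these data had found them apart from their sites, which is not shown here. The numbers called rest on that choice. With both put back they were 0 against the controls, 4 against the other sites and 86 against MROH. Adjusted p values are Benjamini-Hochberg over all features, and called means under 0.05. Errors are SE for log2 differences and SD for CPM. Depth was 4.68 to 9.89 M (mega) counts at VROH, and the reads carry no molecular identifiers. The fit was tested on simulated data. Alternatives were DESeq2 1.42.0, no filter, RLE size factors, other sets of libraries, thinning to 2.91 M counts, a replicate block and leaving out single libraries.

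VROH, CROH and MROH, the gene lists and the alternatives were chosen with earlier results of these data known. Named genes were those called against the controls without overlap (at most 12 higher and 12 lower), the 6 with the largest rises and falls outside the range of the other 15 sites, the 3 largest without overlap against CROH and MROH, with 2 CPM or more in the higher group for the first 2 of these rules, up to 4 called members per list, and 19 genes whatever their values. Other called members of lists, and ALKBH8, AKAP12, CASP8, MT1G, LCN15, DSP, LYZ, GLUL and PTPRK among the sites, were chosen after their values were seen. A gene result is not reported here. Positions are from GENCODE release 29 (GRCh38) and promoters from RefSeq (GRCh38.p14).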

Additional observations from a re-analysis of the deposited data

Results flagged for a closer look

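In 192 groups of 4 or 8 libraries, 18 held a library whose distance from its nearest neighbour was large for the group's range, where chance gives about 1 in 20. Among the controls CTRL 7 was high for CCN2 (485 CPM), LATS2 (31.9) and HUNK (2.82) and low for FAM229B (2.37). CTRL 1 was high for NPNT (27.7) and NRN1 (8.28) and low for CASP6 (19.4). CTRL 5 was high for AKAP12 (97.9) and low for ARG2 (120.6), and CTRL 4 was low for ALKBH8 (12.1). Among site libraries CROH 3 was high for CCN2 (519.9) and LATS2 (47.5) and low for GINS4 (6.53), and CROH 1 was low for ANKRD1 (585) and high for POLD3 (7.37). MROH 1 was low for AXIN2 (46.1), MROH 2 low for CYP20A1 (2.23) and MROH 3 high for PYCR3 (19.7). The VROH group, with 3 libraries, was not tested in this way.

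The failed library VROH 2 was used in no main comparison and entered only the alternative fit with all 71 libraries. Of its 8840 counts POLR3GL took 5.62%, CALM3 4.19% and APOA1-AS 3.61%, where the highest share in any control was 0.0187%, 0.000513% and 0%. It had counts for 1184 of the 6916 tested features.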

How the results depend on the processing

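Counts of called features depended on the fit more than directions did. Against the controls (9 called) DESeq2 called 25, no filter on low counts 1, the 2 groups alone 0, CRMI 1 and SRMI 3 put back 0 and thinning 3; leaving out single libraries gave 0 to 8. With all 71 libraries, the failed VROH 2 included, 9 were called, 2 of them among the 9, 7 higher and 2 lower. With RLE size factors 9 were called. Against the other 15 sites (32 called) DESeq2 called 69, no filter 11, CRMI 1 and SRMI 3 put back 4, thinning 25, RLE 40 (16 higher, 24 lower) and all 71 libraries 22 (13 higher, 9 lower); single VROH libraries left out gave 0 to 41. Against CROH (0 called) all 71 libraries gave 4 and every other alternative run 0. Against MROH (315 called) no filter gave 166, CRMI 1 and SRMI 3 put back 86, all 71 libraries 47, the 2 groups alone 124, DESeq2 395, RLE 309 and thinning 257 (164 higher, 93 lower); single libraries left out gave 55 to 403.

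Correlations of deviations between same-numbered libraries, for VROH 1, 3 and 4, were -0.29, 0.15 and -0.03 with the controls. They were 0.16, -0.47 and -0.10 with CROH and 0.24, -0.49 and -0.38 with MROH. Libraries with different numbers gave -0.47 to 0.41. With 3 VROH libraries, each set against the mean of its own group, these values cannot decide whether the numbers pair dishes. With the replicate block, over 64 libraries, 1 feature was called against the controls, 69 against the other 14 sites in that fit, 0 against CROH and 415 against MROH.

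Directions reversed for 5 uncalled genes against the controls. With all 71 libraries ALB was at -0.26, ANKRD1 at -0.016, MT1G at -0.024 and PLIN2 at -0.16. Leaving out single libraries gave a low, each time without VROH 4, of -0.047 for ALB, -0.068 for ANKRD1, -0.16 for CPT1A and -0.052 for PLIN2, and highs of 0.40, 0.37, 0.26 and 0.23. The causes were not tested. With 3 dishes the median 95% half-width was 0.40 on the log2 scale against the controls, so smaller changes of single genes were mostly not detectable.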
